A study of Mus musculus with 12 samples.

Results

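The genes examined were 42 genes of S phase and DNA replication, taken by symbol from a list and found among the 16234 genes of the count table. All 42 passed edgeR's filter on low counts, which left 12208 genes for testing, and no member had fewer than 126 counts in any library. Bone marrow-derived mast cells (BMMCs), mast cells grown from bone marrow with IL-3 and SCF for 4 to 8 weeks, came from C57BL/6N mice of both sexes aged 6 to 12 weeks. The mice were conventional *Elk4* knockout (KO) or heterozygous (HZ) animals or wild-type (WT) littermates, so that the allele was altered in every cell and not in mast cells alone. Each genotype was sequenced untreated (here unstimulated) and after IgE-DNP/HSA, in which anti-DNP IgE at 0.5 µg/ml was left on the cells overnight and its receptor FcϵRI was then crosslinked for 1 h by the antigen DNP-HSA at 100 ng/ml. The sources do not say whether the untreated cells also received IgE, so effects of the overnight IgE and of the antigen cannot be told apart. The design gave 6 groups of 2 libraries, and the sources do not say whether the 2 came from separate mice or cultures. Every p-value thus rests on the spread between these libraries, taken largely from all genes together, and that spread may be technical. Over 80% of the cultured cells carried both CD117 and FcϵRI by flow cytometry.

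The targeted gene, *Elk4* (NCBI Gene 13714), was read in every library. Scaled to library size after edgeR's TMM correction (CPM), it stood at 73.2 and 78.3 in unstimulated WT, 93.2 and 86.02 in unstimulated HZ and 69.7 and 63.5 in unstimulated KO. Against WT, KO was lower at -0.19 on the log2 scale (SE 0.06, edgeR adjusted p = 0.00872) and HZ higher at 0.24 (SE 0.06, edgeR adjusted p = 0.000484). It had 78.2 and 66.99 CPM in stimulated WT, 65.2 and 63.7 in stimulated HZ and 67.1 and 68.5 in stimulated KO, where HZ was lower than WT at -0.17 (SE 0.06, edgeR adjusted p = 0.0243) and the KO difference of -0.10 (SE 0.06, edgeR adjusted p = 0.208) did not pass. The level thus did not follow the order of the labels, since unstimulated HZ was the highest group, and the KO libraries kept most of it. The deleted part of the gene is not given in the sources, and counts over a whole gene need not show a partial deletion. Below, WT, HZ and KO stand for the library labels. Counts on genes totalled 29697958 to 35531667 per library. Summed over the 11 mast cell markers in the table, libraries held 48105 to 59278 CPM, with the highest values in unstimulated HZ, at 57879 and 59278. Markers of macrophages and monocytes summed to 126 and 131 CPM in unstimulated WT, 78.8 and 78.9 in unstimulated HZ and 64.7 and 65.8 in unstimulated KO, and to 49.97 to 91.6 in stimulated libraries. The summed markers reached at most 11.8 CPM for basophils, 3.57 for eosinophils, 2.68 for erythroid cells, 0.269 for neutrophils, 0.169 for stroma, 0.0905 for lymphocytes and 0.0338 for dendritic cells. The part of these other cells in the results below was not tested.

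Before S phase, the origin recognition complex, CDC6 and CDT1 load the MCM2 to MCM7 ring on DNA, and CDC45 and the GINS complex turn it into the moving helicase. DNA polymerase alpha with primase then starts each strand, RFC loads the PCNA clamp, and ribonucleotide reductase and thymidylate synthase supply the nucleotides. Many of these genes are transcribed under E2F factors as cells pass from G1 into S phase, whereas genes of G2 and mitosis are largely driven later through CCAAT boxes and CHR elements. In bone marrow cultures, IL-3 and SCF keep mast cells dividing.

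Promoters are shown for the genes that moved furthest between unstimulated KO and WT, since the 42 genes moved together in several comparisons. Of the genes called in that comparison, *Rrm2* and *Clspn* had the lowest and *Chaf1b* and *Rfc2* the highest log2 fold change. The sequences run 5′ to 3′ on the gene's strand from 250 bases before the transcript's start to its position 50 and come from RefSeq annotation of GRCm38.p6, whereas the counts were made on GRCm39. Capitals mark CCAAT, or ATTGG on the opposite strand, and E2F words (TTTCCCGC, TTTCGCGC, TTTGCCGC, TTTGGCGC and their reverse complements).
Rrm2, chr12:24708004-24708303, plus strand: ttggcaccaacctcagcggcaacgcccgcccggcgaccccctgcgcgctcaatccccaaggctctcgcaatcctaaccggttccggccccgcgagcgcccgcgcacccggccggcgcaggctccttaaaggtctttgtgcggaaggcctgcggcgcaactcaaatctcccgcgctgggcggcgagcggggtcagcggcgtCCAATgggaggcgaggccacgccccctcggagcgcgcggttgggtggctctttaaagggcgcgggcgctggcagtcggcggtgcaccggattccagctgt
Clspn, chr4:126556730-126557029, plus strand: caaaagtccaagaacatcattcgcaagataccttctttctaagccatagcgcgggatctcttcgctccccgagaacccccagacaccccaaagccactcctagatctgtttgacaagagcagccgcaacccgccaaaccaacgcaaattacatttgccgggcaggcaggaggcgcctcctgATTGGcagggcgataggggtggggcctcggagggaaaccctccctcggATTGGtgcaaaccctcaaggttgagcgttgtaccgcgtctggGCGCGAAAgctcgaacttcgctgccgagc
Chaf1b, chr16:93883651-93883950, plus strand: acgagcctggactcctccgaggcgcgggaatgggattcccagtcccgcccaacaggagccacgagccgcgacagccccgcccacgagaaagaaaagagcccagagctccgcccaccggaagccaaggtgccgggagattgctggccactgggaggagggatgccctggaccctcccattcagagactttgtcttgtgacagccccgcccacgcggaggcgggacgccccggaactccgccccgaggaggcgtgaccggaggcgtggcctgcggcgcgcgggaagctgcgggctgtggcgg

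*Rrm2*, which encodes the small subunit of ribonucleotide reductase, had 1 CCAAT beginning 50 bases before the start and none of the E2F words. *Clspn*, which encodes the checkpoint adaptor claspin, had 1 E2F word beginning at position 22 of the transcript and CCAAT on the opposite strand at positions -69 and -21. The *Chaf1b* window held none of these words. Promoters were given for 32 of the 42 genes. An E2F word stood in 14 of them (43.8%), against 4.74% of the 9828 tested genes with a promoter. CCAAT was present in 23 (71.9% against 43.3%), the CHR word TTTGAA in 6 (18.8% against 14.6%) and the ETS word CCGGAAGT, a core that ELK factors can bind, in 4 (12.5% against 9.33%), each counted on both strands. The 14 genes with an E2F word had a median log2 fold change of -0.29 in unstimulated KO against WT and -0.96 in unstimulated HZ against WT, beside -0.34 and -0.92 for the 18 genes without one. A match describes these letters only.

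Levels are compared between genes per length, as FPKM. In unstimulated WT the 42 genes ran from 2.92 FPKM for *Exo1*, an exonuclease of mismatch repair, to 247 ± 0.742 FPKM (SD, n = 2) for *Pcna*, the sliding clamp, with a median of 17.2. *Rfc2*, a subunit of the clamp loader, followed at 190.5 ± 2.31 FPKM and *Mcm3*, the highest of the helicase genes, at 87.8 ± 1.39. *Pcna* had the highest FPKM of the 42 in 5 of the 6 groups, and *Rfc2* had it in unstimulated HZ, at 193.9. *Rfc2* overlaps *Lat2*, an adaptor gene of mast cell signalling, on the opposite strand in GENCODE vM21. *Lat2* had 709.6 and 690.2 CPM in unstimulated WT, and since the strand setting of the counting is not given, reads of the pair cannot be told apart. Overlaps of the same kind concern *Mcm7*, *Cdc45*, *Gins2*, *Fen1*, *Blm* and *Ccne2*, and *Pcna*, *Tyms* and *Nasp* have annotated pseudogenes that could share reads.

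**Figure D1:**
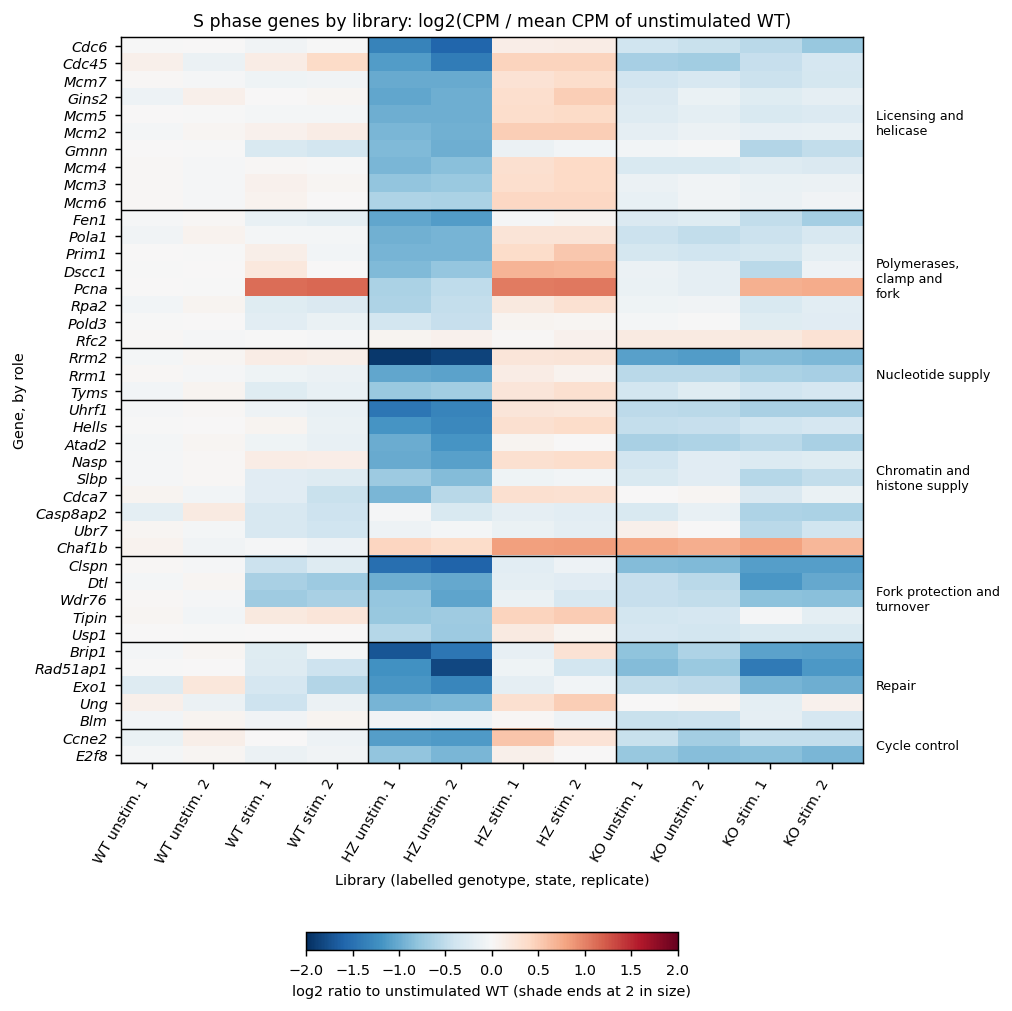
Heat map of the 42 genes in the 12 libraries. Each cell is the log2 ratio of the library's TMM-scaled CPM to the mean of the 2 unstimulated WT libraries; rows are grouped by role and ordered by the unstimulated HZ to WT difference, and colour runs from -2 (blue) to 2 (red). The unstimulated HZ columns are the darkest blue, with a median of -0.92 and -0.95, the stimulated HZ columns are mostly pale red at 0.24 and 0.27, and all 4 KO columns lie between at -0.32 to -0.42.

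The genotypes were first compared without stimulation. In unstimulated cells, S phase genes were lower in KO than in WT and lower still in HZ. Of the 42 genes, 32 were lower in KO, where 21.7% of all tested genes were called lower, and 2 were higher (*Chaf1b* and *Rfc2*), where 22.9% of all genes were. In HZ, 37 were lower (background 26%) and *Chaf1b* alone was higher (background 25.4%). The median log2 fold change of the 42 genes was -0.33 for KO and -0.93 for HZ, beside 0.02 and 0.00 over all genes tested. Past a 2-fold change, 16 genes were lower in HZ (5.32% of all genes) and only *Rrm2* in KO (4.87% of all genes). Between the altered genotypes, 38 of the 42 genes were higher in KO than in HZ (background 23.4%). These comparisons share libraries, so their calls are not independent of each other. In bulk RNA, fewer cells in S phase and less of these mRNAs per cell cannot be told apart.

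Among the 10 genes of licensing and the helicase, 8 were lower in KO and all 10 in HZ. *Mcm3* had 242 and 235 CPM in unstimulated WT, 138 and 143 in unstimulated HZ and 221 and 226 in unstimulated KO. The 3 groups did not overlap, and the KO libraries lay just below the WT libraries, with a log2 fold change of -0.09 (SE 0.03, edgeR adjusted p = 0.0263). Across *Mcm2* to *Mcm7*, the log2 fold change in KO ran from -0.35 for *Mcm7* to -0.09 for *Mcm3*, and in HZ from -1.01 for *Mcm7* to -0.62 for *Mcm6*. The KO calls of *Mcm2*, *Mcm3* and *Mcm6* were lost without the first unstimulated KO library, at -0.11, -0.07 and -0.07, that of *Mcm2* also without the second unstimulated WT library, at -0.11, and those of *Mcm3* and *Mcm6* without the first, at -0.07 and -0.08. *Cdc45*, whose product joins the ring at origin firing, had 25.96 and 22.4 CPM in unstimulated WT, 11.2 and 9.19 in unstimulated HZ and 15.2 and 14.9 in unstimulated KO. The log2 fold change was -0.69 (SE 0.10, edgeR adjusted p = 1.5e-07) in KO and -1.24 (SE 0.11, edgeR adjusted p = 3.72e-14) in HZ. *Cdc6*, the loader of the ring, had 19.5 and 19.8 CPM in unstimulated WT, 7.83 and 6.58 in unstimulated HZ and 14.96 and 14.5 in unstimulated KO. The KO libraries again stood between WT and HZ. *Gmnn*, which encodes geminin, the inhibitor of relicensing, had 22.97 and 22.9 CPM in unstimulated WT, 12.5 and 11.7 in unstimulated HZ and 21.97 and 22.6 in unstimulated KO, and only HZ stood apart. *Gins2*, a GINS subunit, was lower in HZ with a log2 fold change of -1.01 (SE 0.11, edgeR adjusted p = 6.19e-11), and its log2 difference between KO and WT of -0.21 (SE 0.10, edgeR adjusted p = 0.098) did not pass, with a 95% interval of -0.41 to -0.00.

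Of the 8 genes of the polymerases, clamp and fork, 4 were lower in KO and 7 in HZ. *Pcna* had 280.1 and 277 CPM in unstimulated WT, 180.4 and 196 in unstimulated HZ and 254 and 247 in unstimulated KO. Its libraries did not overlap between genotypes, and it was lower with a log2 fold change of -0.15 (SE 0.03, edgeR adjusted p = 0.0001) in KO and -0.57 (SE 0.03, edgeR adjusted p = 6.68e-20) in HZ. *Pola1*, the catalytic subunit of polymerase alpha, had 82.4 and 90.5 CPM in unstimulated WT, 44.3 and 45.5 in unstimulated HZ and 63.9 and 61.6 in unstimulated KO. *Prim1*, the primase subunit, was lower in KO with a log2 fold change of -0.37 (SE 0.08, edgeR adjusted p = 0.000175) and *Fen1*, the flap endonuclease, with a log2 fold change of -0.27 (SE 0.06, edgeR adjusted p = 0.000248). *Pold3*, *Rpa2* and *Dscc1*, of polymerase delta, the single-strand binding protein and an alternative clamp loader, were lower in HZ with log2 fold changes of -0.42, -0.54 and -0.83, and their differences between KO and WT of -0.02, -0.07 and -0.14 did not pass. *Rfc2* had 261 and 256 CPM in unstimulated WT, 269.8 and 275 in unstimulated HZ and 294 and 294 in unstimulated KO. It went the other way in KO, at 0.19 (SE 0.03, edgeR adjusted p = 1.02e-05), and the HZ difference of 0.08 (SE 0.03, edgeR adjusted p = 0.0589) did not pass. The overlapping *Lat2* had 911 and 905 CPM in unstimulated KO and 1019 and 1016 in unstimulated HZ, higher than in WT in both, and its part in the *Rfc2* count was not tested.

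All 3 genes of nucleotide supply were lower in both genotypes, and *Rrm2* had the lowest log2 fold change of the 42 genes in each. *Rrm2* had 132 and 139 CPM in unstimulated WT, 35.7 and 37.6 in unstimulated HZ and 63.7 and 62.5 in unstimulated KO. Its levels fell into 3 separate pairs, and the log2 fold change against WT was -1.10 (SE 0.05, edgeR adjusted p = 3.49e-25) in KO and -1.89 (SE 0.05, edgeR adjusted p = 1.63e-33) in HZ. *Rrm1*, the large subunit of the same enzyme, had 209 and 203 CPM in unstimulated WT, 100.3 and 98.3 in unstimulated HZ and 142 and 141 in unstimulated KO. The *Rrm1* pairs were separate too, but closer together, at -0.54 for KO and -1.05 for HZ. *Tyms*, thymidylate synthase, was lower with a log2 fold change of -0.30 (SE 0.06, edgeR adjusted p = 9.77e-05) in KO and -0.72 (SE 0.07, edgeR adjusted p = 4.34e-13) in HZ.

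The 9 genes of chromatin and histone supply split. *Uhrf1*, which brings the maintenance methyltransferase to new DNA, had 138 and 141 CPM in unstimulated WT, 50.9 and 55.8 in unstimulated HZ and 97.1 and 96.2 in unstimulated KO, so that the pairs did not overlap. *Slbp*, which binds the stem-loop of histone mRNAs, had the highest FPKM of these genes averaged over the 6 groups, although *Uhrf1* was higher in unstimulated WT at 41.9 FPKM beside 40.8. It had 68.4 and 70.7 CPM in unstimulated WT, 42.1 and 38.3 in unstimulated HZ and 56.2 and 59.3 in unstimulated KO. The chromatin remodeller *Hells*, the bromodomain ATPase *Atad2* and the histone chaperone *Nasp* were lower in KO with log2 fold changes of -0.47, -0.64 and -0.31 and in HZ of -1.24, -1.08 and -1.04, all called. *Cdca7*, a partner of HELLS, had 24.9 and 23.1 CPM in unstimulated WT, 12.8 and 16.3 in unstimulated HZ and 24.1 and 24.6 in unstimulated KO, and only HZ was lower, with a log2 fold change of -0.73 (SE 0.10, edgeR adjusted p = 3.53e-08). In the opposite direction, *Chaf1b*, a subunit of the histone chaperone CAF-1, had 42.6 and 38.7 CPM in unstimulated WT, 54.5 and 52.4 in unstimulated HZ and 69.2 and 67.02 in unstimulated KO. Both altered genotypes lay above WT without overlap, by 0.74 (SE 0.06, edgeR adjusted p = 1.6e-14) in KO and 0.39 (SE 0.06, edgeR adjusted p = 5.17e-07) in HZ. *Ubr7*, a ubiquitin ligase acting on histones, passed in neither genotype, with 95% intervals of -0.08 to 0.18 in KO and -0.20 to 0.06 in HZ. *Casp8ap2*, a factor of histone mRNA processing, was lower in KO, with a log2 fold change of -0.23 (SE 0.09, edgeR adjusted p = 0.0423), and its HZ difference of -0.16 (SE 0.09, edgeR adjusted p = 0.156) did not pass. The KO call of *Casp8ap2* was lost with DESeq2, with limma, without the first unstimulated KO library and without the second unstimulated WT library, where the value was -0.02.

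All 5 genes of fork protection and turnover were lower in both genotypes. *Clspn* had 65.7 and 63.4 CPM in unstimulated WT, 22.6 and 21.4 in unstimulated HZ and 35.3 and 34.8 in unstimulated KO. The KO pair lay between WT and HZ, with log2 fold changes of -0.88 (SE 0.07, edgeR adjusted p = 1.13e-15) and -1.55 (SE 0.07, edgeR adjusted p = 5.93e-24). *Usp1*, which removes ubiquitin from PCNA, was the highest of these by mean FPKM and had 95.01 and 94.5 CPM in unstimulated WT, 63.8 and 57.3 in unstimulated HZ and 75.2 and 73.2 in unstimulated KO. *Dtl*, the receptor that sends CDT1 for degradation in S phase, *Tipin*, of the fork protection complex, and *Wdr76* were lower with log2 fold changes of -0.50, -0.35 and -0.47 in KO and of -1.0, -0.74 and -0.90 in HZ.

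Among the 5 repair genes, *Rad51ap1*, which encodes a DNA repair factor, had 26.4 and 26.6 CPM in unstimulated WT, 11.4 and 7.55 in unstimulated HZ and 14.5 and 15.8 in unstimulated KO. Its KO log2 fold change was -0.81 (SE 0.12, edgeR adjusted p = 1.24e-07) and its HZ one -1.48 (SE 0.12, edgeR adjusted p = 2.61e-14), although the 2 HZ libraries differed by 1.51-fold, the widest gap of any of the 42 genes within a group. *Brip1*, a repair helicase, was lower with a log2 fold change of -0.71 in KO and -1.57 in HZ and *Exo1* with log2 fold changes of -0.50 and -1.23. The KO call of *Exo1* was lost without the second unstimulated WT library, at -0.24. *Blm*, the Bloom syndrome helicase and the highest repair gene by mean FPKM, had 79.6 and 85.3 CPM in unstimulated WT, 78.6 and 76.4 in unstimulated HZ and 60.6 and 61.5 in unstimulated KO. It differed from the rest, since KO was lower than WT with a log2 fold change of -0.43 (SE 0.06, edgeR adjusted p = 9.07e-09) while HZ at -0.09 (SE 0.06, edgeR adjusted p = 0.183) did not pass, and it was the only one of the 42 genes called lower in KO than in HZ (background 21.8%), with a log2 fold change of -0.35 (SE 0.06, edgeR adjusted p = 1.49e-06). *Ung*, which removes uracil from DNA, had 11.5 and 9.89 CPM in unstimulated WT, 5.64 and 5.73 in unstimulated HZ and 10.7 and 10.99 in unstimulated KO, and HZ alone was lower.

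Both genes of cycle control were lower in both genotypes. *E2f8*, a repressor of the E2F family and the higher of the pair by mean FPKM, had 35.6 and 37.8 CPM in unstimulated WT, 21.3 and 19.4 in unstimulated HZ and 21.8 and 20.3 in unstimulated KO. KO and HZ overlapped, at -0.80 (SE 0.08, edgeR adjusted p = 1.19e-11) and -0.85 (SE 0.08, edgeR adjusted p = 1.74e-12) against WT. *Ccne2*, cyclin E2, had 10.4 and 12.4 CPM in unstimulated WT, 5.33 and 5.22 in unstimulated HZ and 8.37 and 7.13 in unstimulated KO, and its KO call was lost without the second unstimulated WT library, at -0.42.

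**Figure D2:**
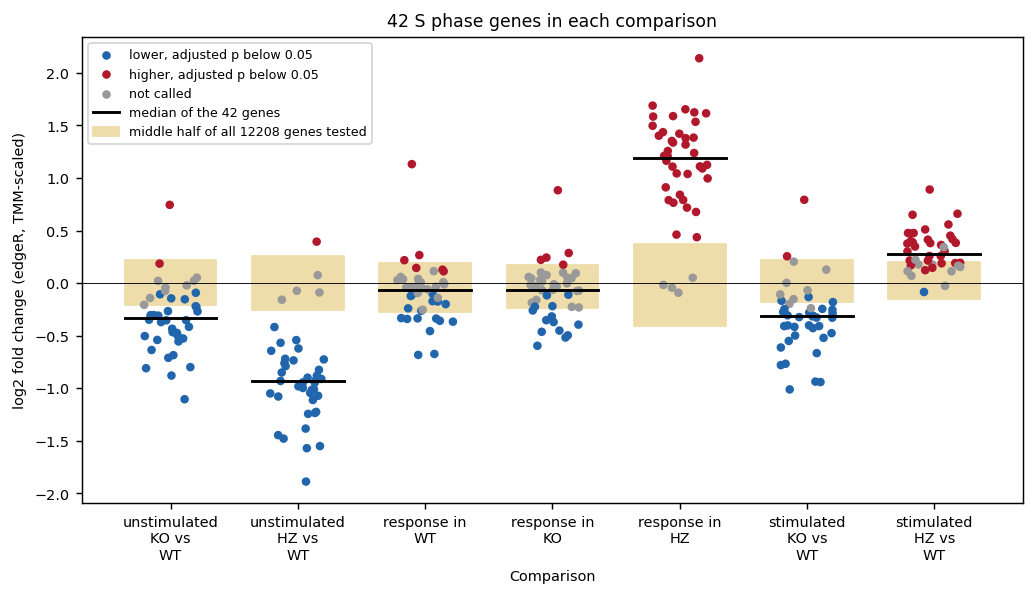
Log2 fold change of each of the 42 genes (points) in 7 comparisons, from edgeR with TMM scaling. Colour gives the call at an adjusted p below 0.05, the black bar is the median of the 42 genes and the shaded band the middle 50% of all 12208 genes tested. The medians lie at -0.33 and -0.93 for unstimulated KO and HZ against WT, near 0 for the response in WT and KO and at 1.19 for the response in HZ.

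The response to IgE-DNP/HSA was then followed within each genotype. In WT, S phase genes moved little as a group, with *Pcna* as the one exception past 2-fold (3.71% of all genes rose past it). Of the 42 genes, 17 fell (22.9% of all genes did) and 6 rose (22.4% of all genes did), with a median log2 fold change of -0.07 beside -0.01 over all genes. Without the second unstimulated WT library 7 fell and 3 rose, without the first 3 rose, and without the second stimulated WT library 9 fell and 2 rose. *Pcna* went from 280.1 and 277 CPM to 604 and 618, a rise of 1.13 (SE 0.03, edgeR adjusted p = 1.52e-32). The stimulated pair lay far above the unstimulated pair. *Dtl*, *Wdr76* and *Exo1* fell most. *Dtl* went from 41.5 and 43.5 CPM to 27.2 and 25.7, a log2 fold change of -0.68 (SE 0.08, edgeR adjusted p = 3.21e-10). *Wdr76* went from 21.8 and 21.04 CPM to 13.1 and 13.7, at -0.67 (SE 0.11, edgeR adjusted p = 1.18e-06). For *Exo1*, the unstimulated libraries had 12.01 and 16.8 CPM and the stimulated ones 11.4 and 9.54, so that 1 unstimulated library was close to a stimulated one. *Cdc45* went from 25.96 and 22.4 CPM to 26.7 and 31.5 and *Tipin* from 36.04 and 33.8 to 39.9 and 41.3. These came after *Pcna* among the genes that rose, at 0.27 and 0.22, ahead of *Nasp*, *Rrm2* and *Mcm2* at 0.14, 0.13 and 0.11, but all 5 turned to between -0.20 and -0.04 when libraries were scaled by their totals.

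That turn reflects a shift of all genes, since stimulated libraries had TMM factors of 0.902 to 0.924 and unstimulated ones 1.08 to 1.12. With library totals in place of TMM, the median response of all tested genes was -0.32 in WT, -0.30 in KO and -0.24 in HZ, and 38 of the 42 genes fell in WT and 36 in KO. The share of all genes that fell under library totals was not counted, so these counts are not read as a result about the 42 genes. Relative to the median of all genes, the median of the 42 genes stayed at -0.05 in WT, -0.06 in KO and 1.19 in HZ under either scaling.

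In KO, S phase genes again moved little as a group. After stimulation 14 of the 42 genes fell (20.5% of all genes) and 5 rose (20.4% of all genes), with a median of -0.07. Without the first unstimulated KO library 9 fell and 2 rose, without the first stimulated library 3 rose, and without the second stimulated library 8 fell. The largest rise was again in *Pcna*, from 254 and 247 CPM to 458 and 466, and the largest fall in *Dtl*, from 31.04 and 29.2 to 19.01 and 20.8 CPM. *Cdc45*, *Pcna*, *Rrm2* and *Tipin* rose in both genotypes and 13 genes fell in both, among them *Clspn*, *Fen1* and *Slbp*. The share of all genes called in both responses was not counted. Of the 5 that rose in KO, *Cdc45*, *Rrm2*, *Tipin* and *Blm* turned to between -0.11 and -0.00 with library totals. WT and KO responses were tested against each other as an interaction. *Pcna* alone of the 42 genes passed (background 3.83%), with a smaller response in KO and a log2 difference of -0.25 (SE 0.05, edgeR adjusted p = 8.77e-05). For the other 41 the difference of the responses lay between -0.27 and 0.32, with 95% intervals within -0.75 to 0.64. Of these, 4 (*Mcm2*, *Atad2*, *Wdr76* and *Blm*) had an unadjusted p below 0.05 in edgeR's test. The share of all genes below that value was not counted.

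In HZ, the same genes rose strongly. Of the 42 genes, 38 rose (32.9% of all genes) and 28 of them by at least 2-fold (7.02% of all genes), with a median log2 fold change of 1.19 beside -0.00 over all genes. All 37 genes that were lower than WT in unstimulated HZ were among the 38. Both results use the same 2 unstimulated HZ libraries, so they are not independent of each other. The share of all genes that did both was not counted. *Rrm2* rose most, from 35.7 and 37.6 CPM to 161 and 162, a log2 fold change of 2.14 (SE 0.05, edgeR adjusted p = 1.68e-36). In the licensing group all 10 genes rose, *Mcm2* from 98.7 and 95.4 to 263 and 262 CPM, *Mcm6* from 159.9 and 158 to 326 and 328 and *Cdc45* from 11.2 and 9.19 to 32.97 and 32.8. Every stimulated HZ library of these genes lay above both unstimulated ones. *Pcna* rose from 180.4 and 196 to 574 and 579 CPM, *Prim1* from 16.9 and 16.9 to 41.6 and 46.7 and *Dscc1* from 3.63 and 3.91 to 10.7 and 10.6.

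The other roles moved alike in HZ. *Uhrf1* rose from 50.9 and 55.8 to 166 and 163 CPM and *Hells* from 14.7 and 13.6 to 41.9 and 43.3. Of the fork genes, *Clspn* rose from 22.6 and 21.4 to 56.04 and 60.4 CPM and *Dtl*, which fell in WT and KO, from 21.6 and 20.95 to 37.1 and 36.5. *Brip1* rose from 5.90 and 7.13 to 17.3 and 23.7 CPM, *Ung* from 5.64 and 5.73 to 13.4 and 15.02 and *Ccne2* from 5.33 and 5.22 to 16.7 and 13.8. The 4 genes that did not pass were *Rfc2*, *Blm*, *Ubr7* and *Casp8ap2*, with log2 fold changes of -0.09 to 0.05 and adjusted p-values of 0.229 to 0.702 in edgeR's test. *Chaf1b*, already above WT, rose further from 54.5 and 52.4 to 72.2 and 72.5 CPM. Tested against the WT response, the HZ response was larger for 39 of the 42 genes (19.9% of all genes), by a median of 1.27 on the log2 scale. Beside it, the median of the 42 genes against WT was -0.93 in unstimulated HZ and 0.28 in stimulated HZ. *Rrm2* differed most, by 2.01 (SE 0.07, edgeR adjusted p = 5.62e-29), and *Pcna*, which rose in WT as well, by 0.48 (SE 0.05, edgeR adjusted p = 1.94e-12).

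The remaining genes with a larger response in HZ than in WT are given by their unstimulated and stimulated HZ libraries. In the helicase, *Mcm3* went from 138 and 143 CPM to 300.3 and 313, *Mcm4* from 73.2 and 77.3 to 173 and 182, *Mcm5* from 73.7 and 73.9 to 187 and 190.4 and *Mcm7* from 70.5 and 70.3 to 174 and 182. *Cdc6* went from 7.83 and 6.58 CPM to 21.6 and 21.8, *Gmnn* from 12.5 and 11.7 to 21.2 and 22.1 and *Gins2* from 8.95 and 9.31 to 23.2 and 25.8. Of the polymerase and fork genes, *Pola1* went from 44.3 and 45.5 CPM to 104 and 104, *Pold3* from 40.9 and 38.4 to 54.7 and 54.5, *Fen1* from 33.1 and 31.4 to 67.1 and 70.5 and *Rpa2* from 21.9 and 24.2 to 38.4 and 41.2. All of these rose by more than the spread of their libraries, *Pold3* least. *Rrm1* went from 100.3 and 98.3 CPM to 229 and 216 and *Tyms* from 32.7 and 33.96 to 64.6 and 68.3. Of the chromatin genes, *Nasp* went from 30.1 and 28.7 CPM to 76.1 and 77.2, *Slbp* from 42.1 and 38.3 to 65.6 and 66.7, *Cdca7* from 12.8 and 16.3 to 30.01 and 29.8 and *Atad2* from 78.3 and 68.6 to 161 and 156. On the log2 scale *Nasp* and *Cdca7* rose by 1.38 and 1.04, and *Slbp* rose by 0.72. *Tipin* went from 20.7 and 21.3 CPM to 47.7 and 49.4, *Usp1* from 63.8 and 57.3 to 107 and 98.9 and *Wdr76* from 12.6 and 10.3 to 19.5 and 17.2. *Exo1* went from 6.45 and 5.85 CPM to 12.7 and 13.9, *Rad51ap1* from 11.4 and 7.55 to 24.96 and 20.5 and *E2f8* from 21.3 and 19.4 to 39.6 and 36.9. *Ubr7*, at 46.2 and 48.1 CPM before and 45.04 and 43.5 after, did not rise in HZ but fell in WT from 51.2 and 48.05 to 39.9 and 37.5 CPM, at -0.36 (SE 0.07, edgeR adjusted p = 1.61e-05).

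**Figure D3:**
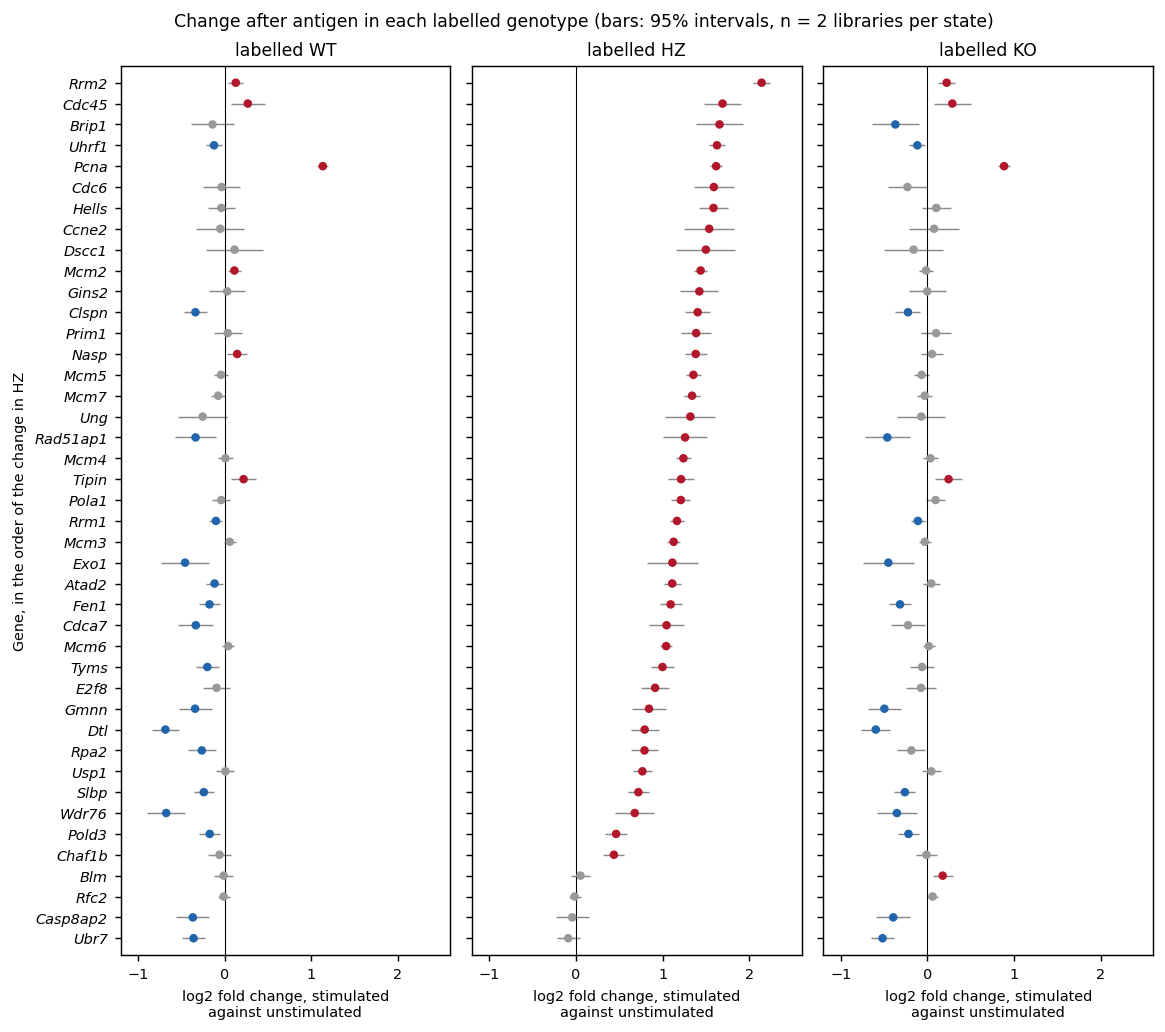
Log2 fold change after IgE-DNP/HSA in WT, HZ and KO for each of the 42 genes, ordered by the change in HZ. Points are edgeR estimates with 95% intervals (2 libraries per state), red for genes called higher, blue for genes called lower and grey for genes not called. In HZ 38 genes lie to the right of 0, whereas in WT and KO most points lie near 0 and *Pcna* stands apart at 1.13 and 0.88.

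In stimulated cells, KO remained below WT while HZ stood slightly above it. In KO, 32 genes were lower than in WT (19.2% of all genes) and 2 higher (21.2% of all genes), with a median log2 fold change of -0.31, and *Rrm2* alone was lower past 2-fold (4.71% of all genes). The same 31 genes were lower in KO in both states, and *Chaf1b* and *Rfc2* were higher in both. How many of all genes were called in both states was not counted. In HZ, 31 were higher (18.4% of all genes), or 23 to 26 when any 1 of the 4 libraries was left out, with a median of 0.28 and no gene past 2-fold, and *Pcna* alone was lower (16.5% of all genes), at -0.08 (SE 0.03, edgeR adjusted p = 0.03), which did not pass when any of the 4 libraries was left out. *Rrm2* had 150.0 and 147 CPM in stimulated WT, 161 and 162 in stimulated HZ and 74.7 and 72.4 in stimulated KO. WT and HZ had come within 0.12 of each other on the log2 scale, and KO remained at -1.01 (SE 0.05, edgeR adjusted p = 1.81e-23) against WT. *Mcm2* had 198 and 206 CPM in stimulated WT, 263 and 262 in stimulated HZ and 166 and 168 in stimulated KO, with HZ above and KO below WT. *Chaf1b* had 40.1 and 37.9 CPM in stimulated WT, 72.2 and 72.5 in stimulated HZ and 70.8 and 64.5 in stimulated KO. For *Chaf1b*, HZ and KO both lay above WT, by 0.89 (SE 0.06, edgeR adjusted p = 1.8e-16) and 0.79 (SE 0.06, edgeR adjusted p = 6.96e-15). *Rad51ap1* had 22.1 and 19.9 CPM in stimulated WT, 24.96 and 20.5 in stimulated HZ and 9.92 and 12.02 in stimulated KO, and its HZ difference of 0.11 (SE 0.12, edgeR adjusted p = 0.496) did not pass. KO was lower than HZ for 40 of the 42 genes (12% of all genes), and *Rfc2* alone was higher (12.9% of all genes).

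**Figure D4:**
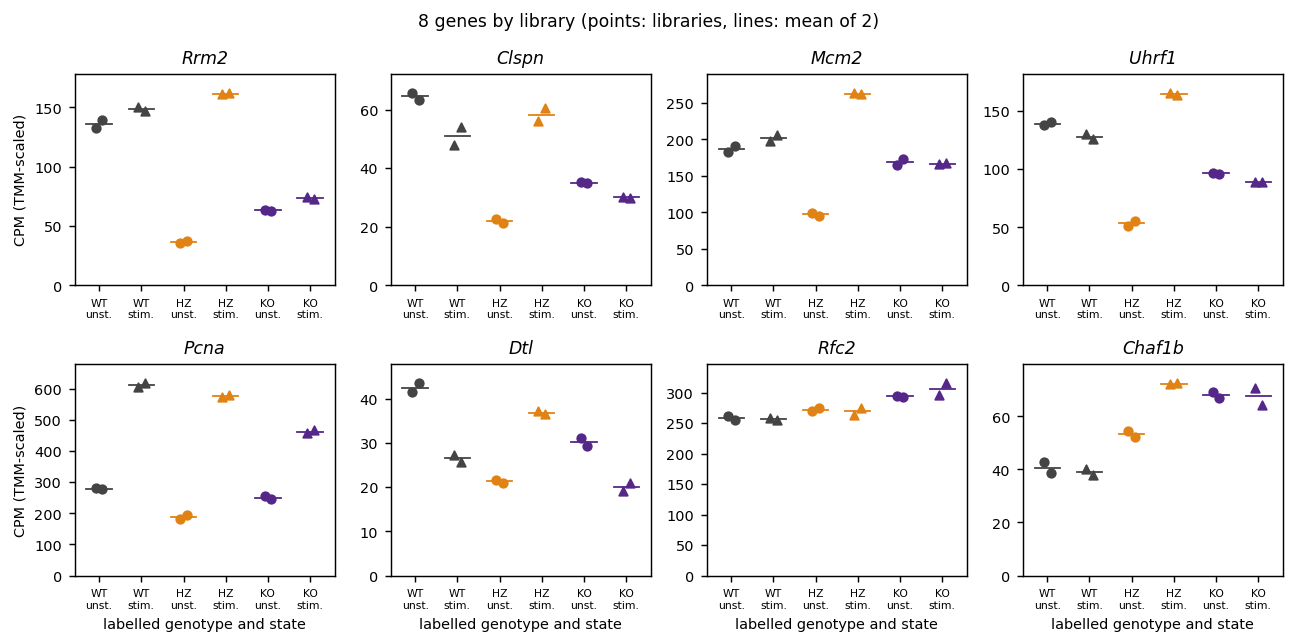
TMM-scaled CPM of 8 genes in each library (points, circles unstimulated and triangles stimulated) with the mean of the 2 libraries of a group (line); each axis starts at 0. *Rrm2*, *Clspn*, *Mcm2* and *Uhrf1* are lowest in unstimulated HZ, *Pcna* rises in all 3 genotypes, *Dtl* falls in WT and KO and rises in HZ, and *Rfc2* and *Chaf1b* follow neither pattern.

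Other genes of replication, not among the 42, were counted in lists by role. Their counts stand beside shares over all tested genes of 21.7% lower and 22.9% higher in unstimulated KO and 26% and 25.4% in unstimulated HZ. Of 20 genes of origin licensing and firing, 12 were lower and 1 was higher in unstimulated KO, with a median log2 fold change of -0.31, and 16 were lower and 1 higher in unstimulated HZ, with a median of -0.78. *Orc1*, the largest subunit of the origin recognition complex, had 18.5 and 20.01 CPM in unstimulated WT, 3.54 and 4.09 in unstimulated HZ and 7.68 and 10.1 in unstimulated KO. It had 77.4 and 73.9 CPM in stimulated WT, 95.5 and 96.2 in stimulated HZ and 72.96 and 71.9 in stimulated KO, so that all stimulated libraries lay far above all unstimulated ones, with a WT response of 1.97 (SE 0.07, edgeR adjusted p = 2.83e-27). *Ticrr* and *Recql4*, of origin firing, were lower in unstimulated KO with log2 fold changes of -0.88 (SE 0.11, edgeR adjusted p = 3.55e-09) and -0.80 (SE 0.12, edgeR adjusted p = 2.04e-07), and *Cdt1*, the partner of CDC6 in loading, fell in stimulated WT with a log2 fold change of -0.68 (SE 0.09, edgeR adjusted p = 5.02e-08). Of 22 tested genes of the polymerases, clamp loaders, RPA and ligase, 11 were lower and 4 higher in unstimulated KO, and 19 were lower and 1 higher in unstimulated HZ, with medians of -0.20 and -0.71. *Pole*, the catalytic subunit of polymerase epsilon, was lower in KO with a log2 fold change of -0.78 (SE 0.06, edgeR adjusted p = 2e-15), and *Chtf18*, of a clamp loader, with a log2 fold change of -0.80 (SE 0.09, edgeR adjusted p = 1.76e-10).

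Of 8 further genes of nucleotide supply, 3 were lower and 2 higher in unstimulated KO, near the shares over all genes, and their median was 0.06 beside 0.02 over all genes. Those called included *Tk1*, thymidine kinase, at -0.97 (SE 0.10, edgeR adjusted p = 1.62e-11) and *Dctpp1*, a dCTP pyrophosphatase, higher at 0.73 (SE 0.10, edgeR adjusted p = 5.28e-08). In unstimulated HZ 5 of the 8 were lower and 1 higher, with a median of -0.72. Of 8 genes of chromatin maintenance, 5 were lower and 1 higher in KO and 5 lower in HZ, with medians of -0.26 and -0.75, among them *Chaf1a*, the partner of *Chaf1b* in CAF-1, with 56.98 and 53.9 CPM in unstimulated WT and 38.8 and 37.5 in unstimulated KO, which gave -0.54 (SE 0.07, edgeR adjusted p = 5.76e-09) on the log2 scale. The pair of CAF-1 subunits thus moved in opposite directions in KO. Of 16 genes of E2F and cyclin control, 11 were lower and 1 higher in KO and 12 lower and 1 higher in HZ, with medians of -0.23 and -0.50. *Ccna2*, cyclin A2, had 100.2 and 95.04 CPM in unstimulated WT, 30.3 and 30.5 in unstimulated HZ and 34.2 and 32.9 in unstimulated KO. Its KO log2 fold change was -1.54 (SE 0.06, edgeR adjusted p = 1.21e-26), and those of *E2f7* and *E2f2* were -1.07 (SE 0.11, edgeR adjusted p = 1.13e-11) and -1.03 (SE 0.13, edgeR adjusted p = 4.67e-09). After stimulation in HZ, 16 of the 20 licensing genes, 21 of the 22 polymerase genes, 6 of the 8 of nucleotide supply, 6 of the 8 of chromatin maintenance and 12 of the 16 of E2F control rose, where 32.9% of all genes did. Of 62 replication-dependent histone genes in the table, 22 passed the filter and 10 of these were lower in unstimulated KO and 9 in HZ, but the members of this family are near-identical and share reads.

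By their medians, G2/M genes put the unstimulated groups in the same order as the S phase genes, but with KO and HZ closer together. With the stimulated groups included, the order differed. Of 54 genes of G2 and mitosis, 53 were lower in unstimulated KO (21.7% of all genes) and 54 in unstimulated HZ (26% of all genes). Their median log2 fold changes were -1.35 and -1.47. By at least 2-fold, 38 and 39 of them were lower (4.87% and 5.32% of all genes). The log2 ratio to the mean of unstimulated WT, taken as the median over a list, was -1.32 and -1.40 in the unstimulated KO libraries and -1.45 and -1.45 in the unstimulated HZ libraries for the G2/M genes, beside -0.36 and -0.32 and -0.92 and -0.95 for the S phase genes. Thus the medians of unstimulated KO and HZ lay close together on G2/M genes and apart on S phase genes. Of the 54 genes, 10 were lower and 18 higher in unstimulated KO than in unstimulated HZ, where 21.8% and 23.4% of all genes were. *Ube2c*, *Cdc20* and *Cenpf*, of the anaphase-promoting complex and the kinetochore, had the lowest log2 fold changes in unstimulated KO against WT, at -2.32, -2.28 and -2.19. After stimulation, 43 of the 54 fell and 3 rose in WT, where 22.9% of all genes fell and 22.4% rose. In KO 28 fell and 4 rose, where 20.5% of all genes fell and 20.4% rose. In HZ 46 rose, where 32.9% of all genes did, and 4 fell. In stimulated HZ the G2/M genes remained below WT, with 34 lower (16.5% of all genes) and 1 higher (18.4% of all genes). Their median was -0.30, whereas the median of the S phase genes was 0.28. Between stimulated KO and stimulated HZ, 51 of the 54 were lower in KO (12% of all genes). The median of the G2/M genes was -0.95 there, beside -0.63 for the S phase genes.

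**Figure D5:**
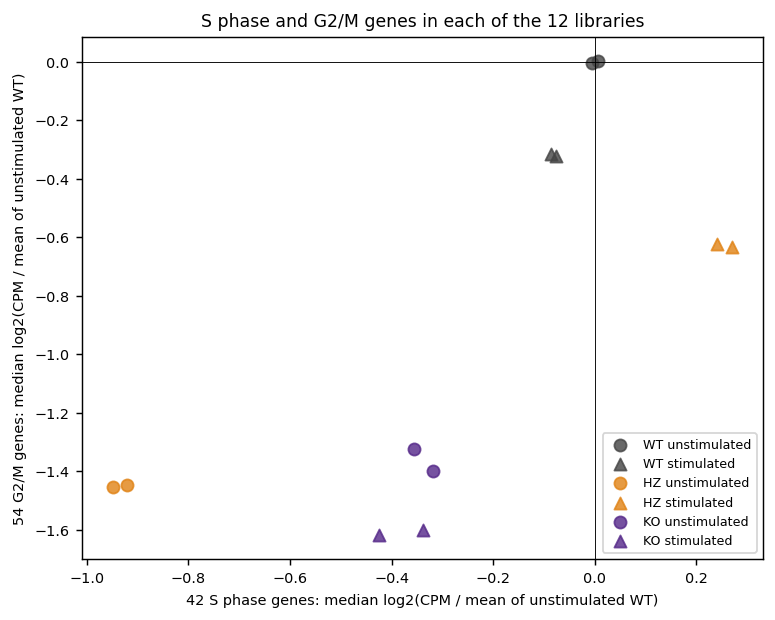
Each of the 12 libraries by the median log2 ratio to unstimulated WT of the 42 S phase genes (x axis) and of 54 G2/M genes (y axis), with colour for genotype and shape for state. Unstimulated HZ lies at the lower left (-0.92 and -0.95 against -1.45 and -1.45), stimulated HZ to the right of WT but below it on the G2/M axis (-0.62 and -0.63), and KO low on the G2/M axis in both states (-1.32 to -1.62).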

How the data were processed

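RNA of BMMCs from 6 groups of 2 libraries was sequenced on an Illumina HiSeq instrument. Per the labels, the authors prepared libraries with a VAHTS Universal V6 kit, and their processing notes name fastp, HISAT2, HTSeq and the build GRCm39, with versions and the strand setting not given in the sources used here. The deposited counts were raw counts per gene, without normalization. The deposited FPKM values were these counts divided by gene length and library total, and were used for levels between genes and for 1 alternative test.

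Counts were tested in R 4.3.3 with edgeR 4.0.16 by its quasi-likelihood test, with 1 mean per group over all 12 libraries, filterByExpr (12208 of 16234 genes), TMM scaling and a prior count of 0.125. Benjamini-Hochberg adjustment of the two-sided p-values covered every tested gene, and a gene was called at an adjusted p below 0.05. Response differences were interactions in the same model. The test pooled each gene's spread with that of other genes, with a median of 38.9 prior degrees of freedom beside 6 residual ones. The biological coefficient of variation was 4.01%, and standard errors of the members' group differences ran from 0.03 to 0.17. Counts of the 2 libraries of a group varied more than sampling noise alone gives, with a chi-square per degree of freedom of 2.93 to 5.25. No library was thus treated as a copy of another, but this cannot exclude repeats prepared from the same culture. The script was tested on simulated data.

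Per-library values were given for the members with the largest falls and rises in unstimulated KO against WT and in the WT response, for the highest member of each role by FPKM and for those with a response difference, and at most 3 called genes per comparison were named from each list of other genes. For the 39 genes with an HZ response difference, the values of some are limited to the HZ libraries. The members and gene lists were chosen with earlier results of these data known. Alternatives were DESeq2 1.42.0, its size factors, library totals, other filters, a 2-fold threshold, a replicate block, limma 3.58.1 on log2(FPKM + 1) for genes with a mean FPKM of at least 0.5, and leaving out each library. A fit of WT and KO libraries only was added after the data were seen.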

Additional observations from a re-analysis of the deposited data

Results flagged for a closer look

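Genes are listed here because the response to stimulation differed between genotypes by an interaction test in edgeR with an adjusted p below 0.05. Between KO and WT this was *Pcna* alone, whose response was -0.25 in KO relative to WT on the log2 scale. Its rise was seen in both KO and both WT libraries, and its levels are given above.

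Between HZ and WT it was 39 genes, all with a larger response in HZ. On the log2 scale the differences of 1.5 or more were 2.01 for *Rrm2*, 1.79 for *Brip1*, 1.75 for *Uhrf1*, 1.74 for *Clspn*, 1.62 for *Cdc6*, 1.62 for *Hells*, 1.59 for *Rad51ap1*, 1.59 for *Ccne2*, 1.57 for *Ung* and 1.57 for *Exo1*. Those from 1.2 up to 1.5 were 1.47 for *Dtl*, 1.42 for *Cdc45*, 1.41 for *Mcm7*, 1.40 for *Mcm5*, 1.39 for *Gins2*, 1.38 for *Dscc1*, 1.38 for *Cdca7*, 1.35 for *Wdr76*, 1.35 for *Prim1*, 1.32 for *Mcm2*, 1.27 for *Fen1*, 1.26 for *Rrm1*, 1.25 for *Pola1*, 1.24 for *Nasp*, 1.23 for *Mcm4* and 1.22 for *Atad2*. The smallest were 1.20 for *Tyms*, 1.18 for *Gmnn*, 1.07 for *Mcm3*, 1.05 for *Rpa2*, 1.01 for *E2f8*, 1.00 for *Mcm6*, 0.99 for *Tipin*, 0.96 for *Slbp*, 0.76 for *Usp1*, 0.63 for *Pold3*, 0.50 for *Chaf1b*, 0.48 for *Pcna* and 0.27 for *Ubr7*. The unstimulated HZ libraries also had the highest summed mast cell markers, at 57879 and 59278 CPM, whose part in these differences was not tested. The difference for *Ubr7* rests on a fall in WT and no call in HZ, and was lost with DESeq2 and without any 1 of 4 libraries (the first unstimulated WT, second stimulated WT and first of each HZ pair), at 0.22 to 0.25.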

How the results depend on the processing

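Numbers of genes called lower and higher were recomputed for 9 comparisons under every alternative, and 220 of the 260 recomputed counts stayed within 1.5 times the reported ones. Counts of 0 that stayed at 0 are among the 220, so the tally says little about such counts. With at least a 2-fold change, edgeR called 1 gene lower and 0 higher in unstimulated KO, 16 and 0 in unstimulated HZ, 0 and 1 in the WT response, 0 and 0 in the KO response, 1 and 0 in stimulated KO, 0 and 0 in stimulated HZ, and 0 lower for the response difference of KO and WT. With library totals, 38 fell and 1 rose in the WT response, 36 fell and 1 rose in the KO response, 4 fell in the HZ response and 0 were lower in stimulated HZ. With limma on log2(FPKM + 1), these were 38 and 1, 35 and 1, 3, and 0. The shares of all genes called under these 2 alternatives were not counted. The shift of all genes under totals accounts for these by construction, and limma's values carry the same totals.

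Genes that turned direction did so under these 2 alternatives. In the WT response, the log2 fold changes with library totals and with limma were -0.20 and -0.19 for *Mcm2*, -0.041 and -0.038 for *Cdc45*, -0.18 and -0.18 for *Rrm2*, -0.16 and -0.15 for *Nasp* and -0.090 and -0.087 for *Tipin*. In the KO response, they were -0.00249 and -0.00311 for *Cdc45*, -0.068 and -0.065 for *Rrm2*, -0.046 and -0.045 for *Tipin* and -0.11 and -0.11 for *Blm*.

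Leaving out 1 library at a time gave 7 to 14 genes lower and 2 to 4 higher in the WT response, 8 to 11 and 2 to 4 in the KO response, and 0 lower in stimulated HZ whichever library was left out. In unstimulated KO it gave 28 to 32 lower, in stimulated KO 25 to 31 lower, in stimulated HZ 23 to 26 higher and in the HZ response 38 higher throughout. Of the called genes, 28 of 34 in unstimulated KO, 38 of 38 in unstimulated HZ and in the HZ response, 7 of 23 in the WT response, 8 of 19 in the KO response, 25 of 34 in stimulated KO and 18 of 32 in stimulated HZ kept their call under every alternative other than the 2-fold threshold. Without HZ libraries, 32 genes were lower in unstimulated KO, 17 fell in WT and 14 in KO.

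Deviations of stimulated and unstimulated libraries of the same number and genotype correlated by -0.04 to 0.08, so little shared replicate effect was seen. Whether libraries of the same number came from the same mouse or culture cannot be told from this. With a replicate block, 2 genes were higher in unstimulated HZ in place of 1, also with the block within genotype, and it moved no other count by over 1.5 times. With 2 libraries per group, 1 library decides most weak calls, and differences under about 0.1 on the log2 scale were detectable only in genes with many counts.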
